A study of Mus musculus with 122 samples.

Results

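Cathepsins are the proteases of the lysosome. They were followed here in alveolar macrophages of mice that lack the transcription factor C/EBPβ (gene Cebpb), carry only its short form, or lack a subunit of a cytokine receptor. The family was taken by gene symbol: Ctsa, Ctsb, Ctsc, Ctsd, Ctse, Ctsh, Ctsk, Ctsl, Ctss and Ctsz, 10 of the 22050 genes in each of the 3 deposited count tables. All 10 were found in every table.

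Cathepsins are made as inactive precursors, carried to endosomes and lysosomes by mannose 6-phosphate and other sorting receptors, and activated there at acid pH. By catalytic site they fall into aspartic proteases (Ctsd, Ctse), a serine carboxypeptidase (Ctsa) and papain-like cysteine proteases. The cysteine members divide further into endopeptidases (Ctsb, Ctsl, Ctss, Ctsk), which cut inside a protein, and exopeptidases (Ctsc, Ctsh, Ctsz), which trim its ends. Alveolar macrophages clear surfactant and inhaled particles from the airspace, and cathepsins digest the proteins they take up, prepare peptides for MHC class II and, when secreted, cut extracellular matrix.

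The series compared RNA and chromatin of Cebpb mutant alveolar macrophages with their controls. RNA libraries, 99 in 31 groups, were made by MARS-seq, a method that counts the 3' ends of polyadenylated RNA, from pools of 500 to 20000 sorted cells. A change in bulk RNA cannot tell fewer cells of a type from less RNA per cell. The labels number replicates without naming animals, so every p below measures the spread between these libraries.

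The germline knockout was the strain C/EBPb tm1Pfj on a mixed background. Adult lavage macrophages of this line were labelled Cebpb +/+ (4 libraries) or Cebpb -/-, the latter sorted into CD11b low (4) and CD11b high (4) cells. Further lavage libraries came from females of a facility labelled 1 (+/+ 2, heterozygous 3, -/- 2), females of a facility labelled 2 (+/+ 3, -/- 2) and males (+/+ 2, -/- 2). Another 3 +/+ and 3 -/- libraries accompanied ATAC-seq. From embryonic day 18 whole lung, the line gave premature alveolar macrophages (+/+ 3, -/- 4) and Ly6Chi fetal monocytes (+/+ 3, -/- 4).

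The conditional lines, on C57BL/6, carried the floxed allele Cebpbtm1.1Elgaz/J. In one, macrophages with LyzM Cre on both alleles and Cebpb flox/flox (2) were set against Cebpb flox/flox cells without Cre (2), so the Cre insertion and the deletion cannot be told apart. In the other, CD11c +/Cre Cebpb flox/flox cells (4) were set against CD11c +/Cre cells (3), so both groups carried Cre. LyzM Cre sits in Lyz2, a gene of myeloid cells, and CD11c-Cre is driven by Itgax, active in alveolar macrophages and dendritic cells. The line labelled Lip (C/EBPtm1.2Acle, mixed background; LIP is the name of the short C/EBPβ isoform that lacks the activation domains) gave Lip +/+ macrophages (3) and Lip/Lip macrophages sorted as CD11b low (4) and CD11b high (4), plus 4 and 4 libraries that accompanied ATAC-seq. Csf2rbtm1Cgb/J mice on C57BL/6 lack the shared β subunit of the GM-CSF receptor and gave day 18 premature macrophages (+/+ 4, -/- 3). In the chimeras, lethally irradiated CD45.1/2 recipients, 8 to 12 weeks old and given enrofloxacin for 10 days, received 33% wild-type CD45.1/1 and 66% CD11c-Cre Cebpb fl/fl CD45.2/2 marrow. Donor macrophages of both kinds were sorted from whole lung after 5 weeks (3 wild-type, 4 mutant) and 10 weeks (4 wild-type, 3 mutant).

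Libraries held 642269 to 17834909 counts and 9387 to 13579 detected genes, and the 10 cathepsins took 0.697% to 4.37% of all counts. Cebpb was lower in each Cebpb knockout contrast, by log2 2.95 to 5.34, and Csf2rb fell by 1.62 on the log2 scale in its own knockout, so the deletions match the labels. The Lip line kept Cebpb RNA, 0.63 higher (log2) in CD11b low cells than in controls. A fixed list of 10 alveolar macrophage markers, Siglecf, Marco and Fabp4 among them, was lower in sum in every full or conditional Cebpb knockout of adult cells: 10089 to 12426 CPM (counts scaled to 1000000 per library, with TMM factors set within each experiment) in +/+ cells against 3420 to 4371 in CD11b low and 1359 to 3513 in CD11b high Cebpb -/- cells. A list of 10 markers of monocyte-derived and interstitial macrophages moved the other way, from 747 to 1024 CPM to 3518 to 8575 and 5265 to 6878. Ncr1 of lymphocytes and Epx of eosinophils were at 0 in all 31 groups. The mitochondrial share of counts was higher in mutant libraries, without overlap, in several sets: 1.17% to 1.80% in CD11b low Cebpb -/- against 0.497% to 1.15% in +/+ cells, 1.77% to 2.00% against 1.48% to 1.56% in the knockout set that accompanied ATAC-seq, 1.50% to 1.67% against 1.16% to 1.45% with CD11c-Cre, 1.37% to 1.62% against 0.813% to 0.973% with LyzM Cre, 1.54% to 1.77% in CD11b high Lip cells against 1.03% to 1.15% in controls, and 0.421% to 0.898% against 0.147% to 0.185% in the 10-week chimeras. It was lower in day 18 Cebpb -/- macrophages (0.205% to 0.610% against 0.734% to 1.44%). What part these shifts in markers and mitochondrial RNA play in the cathepsin results was not tested.

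The chromatin files give C/EBPβ peaks and open regions at the members. Of the promoters below, those of Ctsl, Ctsk and Ctsc are shown because a C/EBPβ peak region lay over the start site. Those of Ctsd and Ctsz are shown because an open region over the promoter was called in control cultures and in no knockout culture. All are the 250 bases before the transcript start tabulated from RefSeq in GRCm38.p6, written 5′ to 3′ on the gene's strand. For Ctsl that start lies inside the annotated gene, so its window is internal to the gene, and for Ctsc it lies just inside. Capitals mark TTGCNNAA, a relaxed C/EBP core, and CACGTG, the E-box, each searched on both strands. The motifs do not overlap one another.
Ctsl: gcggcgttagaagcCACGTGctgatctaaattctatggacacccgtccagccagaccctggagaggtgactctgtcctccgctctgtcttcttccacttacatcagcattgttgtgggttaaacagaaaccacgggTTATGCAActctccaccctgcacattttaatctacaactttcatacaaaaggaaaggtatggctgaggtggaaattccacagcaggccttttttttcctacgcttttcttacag
Ctsk: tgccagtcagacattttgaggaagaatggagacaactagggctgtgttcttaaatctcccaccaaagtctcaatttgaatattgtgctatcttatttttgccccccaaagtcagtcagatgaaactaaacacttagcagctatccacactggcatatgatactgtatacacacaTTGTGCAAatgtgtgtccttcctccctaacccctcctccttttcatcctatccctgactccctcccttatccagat
Ctsc: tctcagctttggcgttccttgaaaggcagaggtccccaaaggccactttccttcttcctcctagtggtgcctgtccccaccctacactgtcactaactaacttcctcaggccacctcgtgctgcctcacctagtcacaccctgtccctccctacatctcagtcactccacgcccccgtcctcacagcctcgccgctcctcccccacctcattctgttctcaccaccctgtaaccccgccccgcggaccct
Ctsd: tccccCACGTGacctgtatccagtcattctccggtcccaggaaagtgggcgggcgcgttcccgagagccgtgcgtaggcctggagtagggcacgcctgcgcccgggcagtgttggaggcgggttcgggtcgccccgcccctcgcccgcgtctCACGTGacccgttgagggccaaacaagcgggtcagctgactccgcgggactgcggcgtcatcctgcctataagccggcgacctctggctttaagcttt
Ctsz: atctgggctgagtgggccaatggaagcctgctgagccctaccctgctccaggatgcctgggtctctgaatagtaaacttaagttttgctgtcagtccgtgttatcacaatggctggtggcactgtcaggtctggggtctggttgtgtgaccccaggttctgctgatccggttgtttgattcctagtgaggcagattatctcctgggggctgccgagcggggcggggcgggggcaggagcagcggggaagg

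The Ctsl window (chr13:64370521-64370770, minus strand) holds the relaxed C/EBP core 114 bases before the start and an E-box 236 bases before it. Ctsk (chr3:95498960-95499209, plus strand) holds the relaxed core 76 bases before the start. Ctsd (chr7:142387828-142388077, minus strand) holds E-boxes 245 and 98 bases before the start. In the windows of Ctsc (chr7:88277835-88278084, plus strand) and Ctsz (chr2:174439040-174439289, minus strand) neither motif was found. Of 32851 mouse promoter windows of the same length, 9.56% hold TTGCNNAA and 6.02% hold CACGTG. The full palindrome TTGCGCAA (0.164% of windows), the AP-1 motif TGANTCA (6.75%) and the PU.1 core GGAAGTG (8.55%) were absent from the member windows at hand. A letter match is no measurement of binding.

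The C/EBPβ ChIPmentation peaks came from lavage macrophages of C57BL/6 wild-type mice, called by the authors in each of 2 libraries. A region shared by both libraries lay within 10 kb of 8 of the 10 members, all but Ctsa and Ctsh, as it did for 58.4% of 11398 genes. The 1209-base region over the Ctsl start (chr13:64370064-64371272) had the authors' fold enrichments 32.0 and 21.4. At the Ctsk start (chr3:95498827-95500549) they were 26.3 and 31.3, and at the Ctsc start (chr7:88276978-88278258) 25.8 and 26.3. Of the promoter windows shown, those of Ctsk, Ctsd and Ctsz each held a peak in 1 of the 2 libraries, and those of Ctsl and Ctsc in both. Ctsd had its strongest region upstream of the gene (chr7:142389962-142392268, folds 30.5 and 23.3). Regions inside the gene led at Ctsb (chr14:63128620-63129620, 22.6 and 28.8), Ctsz (chr2:174437346-174438243, 21.5 and 18.9) and Ctse (chr1:131638362-131639202, 15.5 and 21.4). Ctss and Ctsk are neighbours on chromosome 3 and share 1 region, at chr3:95518761-95519389, with folds of 6.18 and 8.27.

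ATAC peaks came from lavage macrophages cultured with CSF2 and then interferon α, of MxCre+ (2 cultures) and MxCre+ Cebpb flox/flox mice (3 cultures), strain Tg(Mx1-cre)1Cgn/J on C57BL/6. Over the Ctsz and Ctsd promoter windows a peak was called in 2 of 2 control and 0 of 3 knockout cultures. Over those of Ctsa, Ctss, Ctsc and Ctsl it was called in all 5, and over that of Ctsk in 1 of 2 control and 2 of 3 knockout cultures. Within 10 kb, regions called in both controls and no knockout numbered 2 at Ctsc, 2 at Ctsd and 1 each at Ctsb, Ctsl and Ctsz. At least 1 such region lay near 20.3% of 11398 genes. The opposite kind, open in all 3 knockout cultures only, occurred once at Ctsc and once at Ctsh, against 22.5% of genes. A peak that is missing at the authors' threshold gives no size of change, and these cultures are not the cells of the RNA libraries.

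**Figure D1:**
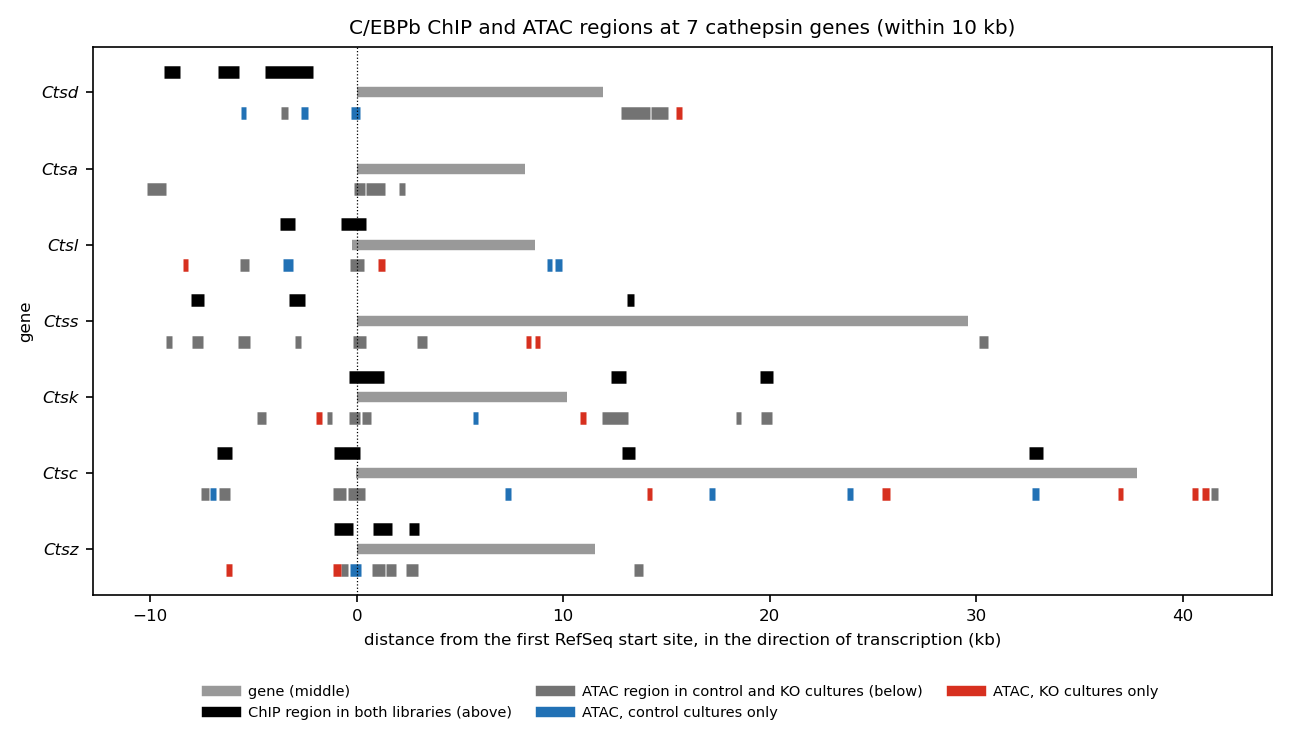
C/EBPβ ChIP regions found in both libraries (black, above each gene) and ATAC regions (below; blue in control cultures only, red in knockout cultures only, grey in both) at 7 cathepsin genes (grey bars), plotted by distance in kb from the start site in the direction of transcription (x axis), 1 gene per row; narrow regions are drawn at a minimum width. ChIP regions sit over the starts of Ctsl, Ctsk and Ctsc, and at Ctsd upstream of the gene.

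In RNA, the family was tested in 17 contrasts of a mutant with its own control. A member is called higher or lower where the adjusted p is under 0.05 (edgeR quasi-likelihood test, Benjamini-Hochberg over all genes tested). In Cebpb -/- CD11b low cells 4 of 10 members were called, all higher, where 15.1% of 8502 tested genes were called. In CD11b high cells 7 of 10 were called (6 higher, 1 lower) against a background of 24.0%. Both contrasts use the same +/+ libraries. Both counts include Ctse, which entered these tests through its knockout libraries, where it is high. Between the CD11b high and low knockout cells no member was called (3.80% of genes were), with 2 members at an unadjusted p under 0.05 and 0 called by DESeq2.

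Facility 1 females had 6 of 10 members called, all higher, against 23.2% of genes, and facility 2 females 9 of 10 (7 higher, 2 lower) against 47.6%. Males had 4 of 10 higher against 10.9%. Averaged over these 3 strata, 7 of 10 members were higher, with a background of 45.5%. Heterozygous facility 1 females had no member called against 0.634% of genes. There 2 members had an unadjusted p under 0.05, and DESeq2 called 0. The knockout libraries that accompanied ATAC-seq had 8 of 10 called (7 higher, 1 lower) against 27.2%. That count fell to 4 without +/+ replicate 2 or 3, and to 5 without +/+ replicate 1, while calls over all genes went from 2795 to between 1894 and 2090. The 8 include Ctse, which entered that test through its knockout libraries, where it is high.

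With CD11c-Cre 5 of 9 tested members were called, all higher, against 16.8% of genes. With LyzM Cre, where each group had 2 libraries, 0 of 9 were called and 4.68% of genes were. For that contrast 2 members had an unadjusted p under 0.05, and DESeq2 called 1. Without either LyzM Cre knockout library 6 were called, the remaining one being assumed to vary like the controls. Over all genes the calls rose as well, from 405 of 8654 to 1877 of 9275 without replicate 1 and 2747 of 8806 without replicate 2. In the Lip line 9 of 9 tested members were called in CD11b low cells (8 higher, 1 lower) against 25.8%, and 6 of 9 in CD11b high cells, all higher, against 39.3%. The 2 Lip contrasts share their controls. The Lip libraries that accompanied ATAC-seq had 4 of 9 higher, against 4.94%, and 2 without control replicate 1, 2 or 4 or Lip/Lip replicate 1 or 3, where calls over all genes went from 469 to between 325 and 403.

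At embryonic day 18, 3 of 10 members were called in Cebpb -/- premature macrophages (2 higher, 1 lower) against 21.5% of genes. In Csf2rb -/- cells 2 of 10 were called (1 higher, 1 lower) against 22.5%, and 4 without +/+ replicate 2 (1829 genes called in place of 2118). In Ly6Chi fetal monocytes 0 of 9 were called against 3.62%, with 2 at an unadjusted p under 0.05 and 0 called by DESeq2. In the chimeras, 5 of 10 were called after 5 weeks, all lower, against 22.5%, and 6 of 10 after 10 weeks (3 higher, 3 lower) against 45.5%. The 5-week count fell to 3 without wild-type replicate 1 or 2, where 1951 and 1480 genes were called in place of 2509.

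**Figure D2:**
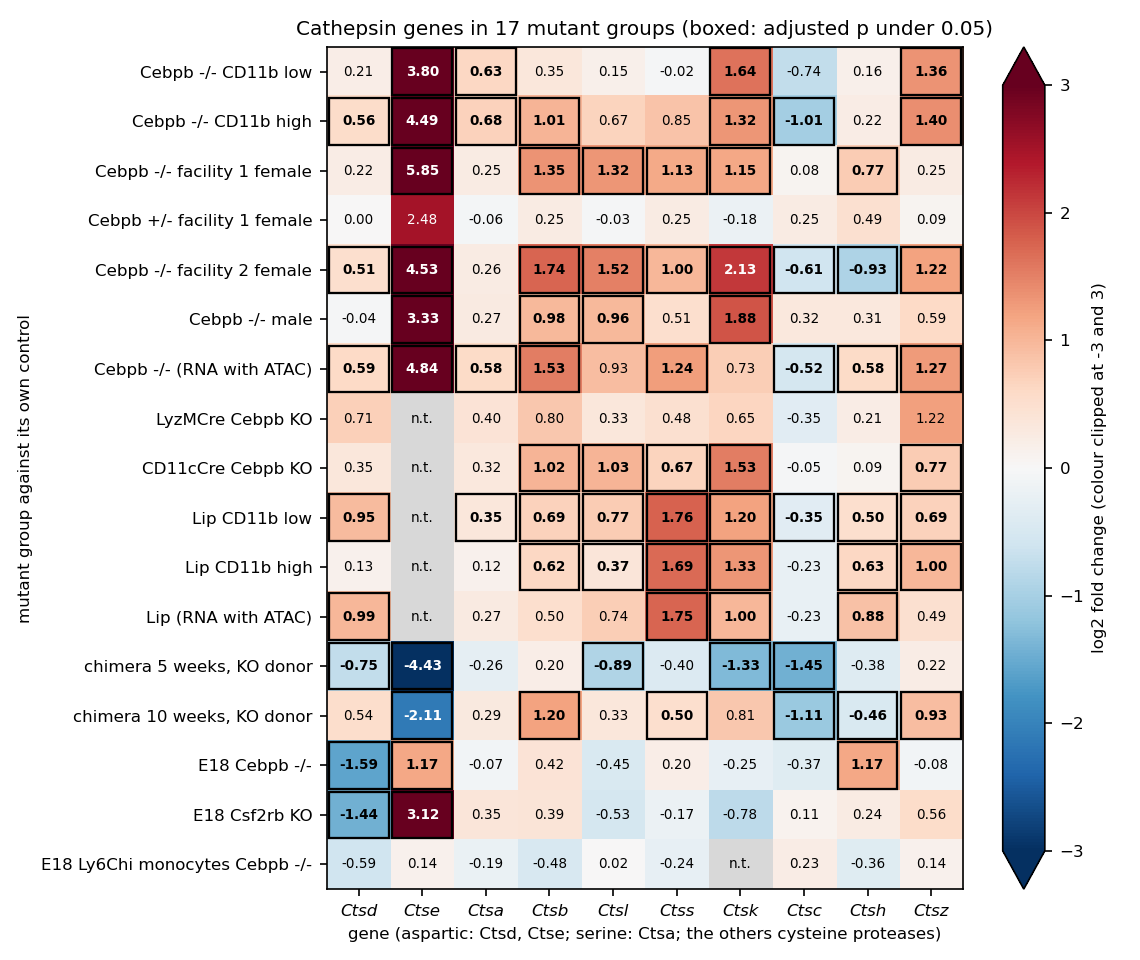
Log2 fold change (colour) of the 10 cathepsin genes (columns) in 17 contrasts of a mutant group with its control (rows). Boxes mark an adjusted p under 0.05. Ctsb, Ctss and Ctsz are boxed as higher in 9, 8 and 8 contrasts and lower in none, and Ctsc as lower in 6 and higher in none.

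Over the 17 contrasts the members fell into several patterns. Ctsa (4 contrasts), Ctsb (9), Ctss (8) and Ctsz (8) were called higher and never lower. Ctsc was called lower in 6 and never higher. Ctse was higher in 8 and lower in 2 of the 12 in which it had enough counts to be tested. In the CD11b low and CD11b high Cebpb -/- contrasts and the knockout set that accompanied ATAC-seq, it entered the test through its knockout libraries. Ctsk was higher in 9 and lower in 1 of 16, Ctsl higher in 6 and lower in 1, Ctsh higher in 6 and lower in 2, and Ctsd higher in 5 and lower in 3. Several of these contrasts share controls, so they are not independent of one another.

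Ctse, cathepsin E, is an aspartic protease of endosomes in immune and epithelial cells, and it was the member with the widest range. In adult +/+ macrophages it stood at 4.02, 0, 1.34 and 3.11 CPM. Cebpb -/- CD11b low libraries held 14.5, 13.9, 31.7 and 60.4 CPM, and CD11b high libraries 20.6, 24.7, 100 and 54.5 CPM. Every knockout library lay above every control library. The changes were 3.80 ± 0.78 (log2, SE; adjusted p = 0.00227) and 4.49 ± 0.74 (0.000181). The +/+ libraries held only 3, 0, 2 and 3 counts. From summed counts over summed depth, the ratio was 14.3 (95% interval 7.04 to 33.8, exact conditional binomial, counting error only) in CD11b low and 22.5 (11.2 to 52.7) in CD11b high cells. No +/+ library reached the low-count filter's minimum, so Ctse entered the test in these contrasts through its knockout libraries, where it is high, and had to differ.

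Ctse rose in the other adult germline knockout sets as well. Facility 1 females had 94.2 and 89.9 CPM in -/- and 3.12 and 0.239 CPM in +/+ cells (5.85 ± 0.69, adjusted p = 2.38e-05). Their heterozygous libraries, at 9.09, 3.50 and 14.6 CPM, lay between these, above both +/+ and below both -/- libraries. The heterozygous difference, 2.48 ± 0.74, had an adjusted p of 0.165 and was not called, and it shares its controls with the knockout. Facility 2 females had 86.7 and 94.1 against 3.16, 5.85 and 2.38 CPM (4.53, adjusted p = 3.14e-06). Males had 36.0 and 56.4 against 4.51 and 4.63 CPM (3.33, adjusted p = 0.00135). The libraries that accompanied ATAC-seq had 20.3, 49.1 and 63.1 against 1.38, 1.29 and 1.83 CPM (4.84, adjusted p = 0.000121). Its +/+ libraries held 6, 7 and 10 counts, under the filter's minimum, so there too Ctse entered through the knockout libraries. The ratio of summed counts there was 28.7 (18.9 to 45.7, counting error only). In none of these sets did the groups overlap.

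The other lines differed in Ctse. In all 7 libraries of the CD11c-Cre contrast, mutant and control, no Ctse count was found, where 3 counts would stand for 0.495 to 1.40 CPM. The same held for the 3 Lip controls and for all 8 Lip and control libraries that accompanied ATAC-seq. Lip CD11b low cells had 0 in 3 of 4 libraries and 0.847 CPM in the other, and CD11b high cells had 0.856, 0.961, 0.771 and 4.82 CPM, from 1, 1, 1 and 6 counts. LyzM Cre knockout libraries held 3 and 5 counts and their controls 0 and 1, a ratio of 4.3 with an interval of 0.576 to 191. Over the series, 23 of 99 libraries held no Ctse count. Adult knockout libraries of the germline line thus held 13.9 to 100 CPM of Ctse, and lavage libraries of the other mutant lines 0 to 4.82 CPM, each set scaled on its own. The line and the kind of mutation change together here and cannot be told apart.

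**Figure D3:**
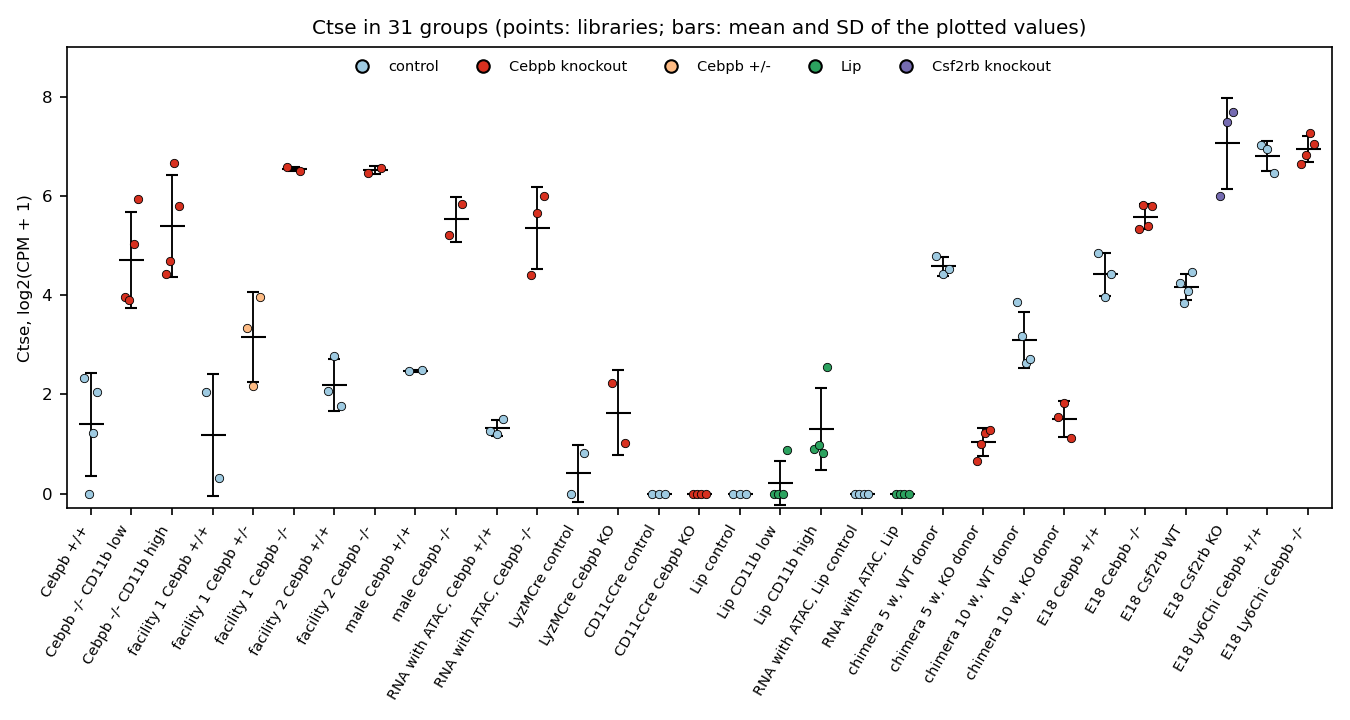
Ctse as log2(CPM + 1) (y axis) in all 31 groups (x axis; control blue, Cebpb knockout red, heterozygous orange, Lip green, Csf2rb knockout purple); points are libraries and bars the mean and SD of the plotted values. Germline Cebpb -/- macrophage groups stand above their +/+ groups, while the Ly6Chi monocyte groups overlap. Both lavage groups of the CD11c-Cre line are at 0.

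Ctsd, the main aspartic endopeptidase of the lysosome, was the most changeable in direction. Adult +/+ macrophages had 14708, 9291, 10638 and 10945 CPM. Cebpb -/- CD11b high cells had 17199, 13898, 15561 and 20453 CPM, with one library inside the +/+ range (0.56 ± 0.19, adjusted p = 0.0410). That call was lost without any 1 of 5 libraries (+/+ replicate 2, 3 or 4, CD11b high replicate 1 or 4). CD11b low cells, at 12686, 14863, 13113 and 12093 CPM, overlapped the controls and were not called (0.21). In facility 2 females it was 11043 and 10118 against 6870, 7368 and 8078 CPM, a rise of 0.51 (adjusted p = 0.0205) that was lost without any 1 of 3 libraries (+/+ replicate 1 or 2, -/- replicate 1).

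The Lip line separated Ctsd by CD11b. Controls had 11315, 9957 and 11978 CPM, CD11b low cells 18683, 20720, 24674 and 21664 CPM, and CD11b high cells 11468, 11427, 11505 and 14013 CPM. CD11b low libraries lay above all the others. Ctsd rose by 0.95 ± 0.10 in CD11b low cells (adjusted p = 7.23e-11), was not called in CD11b high cells (0.13, adjusted p = 0.318), and was lower in high than in low cells by log2 0.82 (adjusted p = 5.62e-10). Of 9 tested members 3 were called between the Lip CD11b high and low cells, where 19.5% of genes were. Lip libraries that accompanied ATAC-seq had 14391, 14047, 15213 and 15627 against 6822, 7525, 8049 and 7377 CPM, a rise of 0.99 ± 0.22 (adjusted p = 0.00910).

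Ctsa, the serine carboxypeptidase known as protective protein because it stabilises the sialidase Neu1 and the β-galactosidase Glb1, rose modestly. It had 1063, 1045, 1206 and 1230 CPM in +/+ cells. CD11b low knockout libraries held 1891, 1873, 1578 and 1680 CPM, all higher (0.63 ± 0.19, adjusted p = 0.0312). That call remained only when CD11b low replicate 3 was the library left out. CD11b high libraries held 2287, 1820, 1328 and 1845 CPM, again without overlap (0.68 ± 0.19, adjusted p = 0.0127). In Lip CD11b low cells Ctsa rose by 0.35 (adjusted p = 0.00608), lost without control replicate 2. Its partner Neu1 fell in CD11b low knockout cells (by 0.81 ± 0.20 on the log2 scale, adjusted p = 0.00929), while Glb1 was not called there. Ctsa lies 2.85 Mb from Cebpb on chromosome 2, so DNA linked to the mutant allele and the mutation itself cannot be told apart for this gene in these contrasts.

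Of the cysteine endopeptidases, Ctsk was called in the most contrasts. Cathepsin K is the collagenase of osteoclasts, and it also occurs in some tissue macrophages. Adult +/+ cells had 309, 548, 525 and 391 CPM, CD11b low knockout cells 1365, 1148, 1199 and 1815, and CD11b high knockout cells 571, 893, 1760 and 1207 CPM. No knockout library overlapped the controls, though one CD11b high library stood close to them. The rises were 1.64 ± 0.29 (adjusted p = 0.000482) and 1.32 ± 0.29 (adjusted p = 0.00191).

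Ctsk was called higher in every contrast of homozygous or conditional mutant adult lavage cells with their controls except 2. In heterozygous facility 1 females, at a mean of 545 against 619 CPM, it was not called either (-0.18, adjusted p = 0.819). Facility 2 females had 1820 and 3153 against 567, 529 and 613 CPM (2.13, adjusted p = 8.94e-07). CD11c-Cre knockout cells had 1085, 1167, 1007 and 1332 against 400, 385 and 410 CPM (1.53 ± 0.12, adjusted p = 4.32e-06). Lip controls had 292, 372 and 268 CPM, CD11b low cells 675, 734, 747 and 700 and CD11b high cells 694, 870, 815 and 749 CPM (1.20 and 1.33, adjusted p = 1.30e-12 and 2.67e-14). The 2 contrasts without a call were LyzM Cre, at 1367 and 1766 against 1006 and 999 CPM (0.65, adjusted p = 0.355), and the knockout set that accompanied ATAC-seq, at 941, 430 and 795 against 404, 398 and 502 CPM (0.73, adjusted p = 0.0707). In facility 1 females the call (1.15, adjusted p = 0.00318) was lost without +/+ replicate 1.

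Ctsb, which acts as endopeptidase and dipeptidyl carboxypeptidase and is among the best studied lysosomal cysteine proteases, was higher in 9 contrasts. Adult +/+ cells had 2009, 2137, 1270 and 1193 CPM and CD11b low knockout cells 1823, 1682, 2004 and 2900 CPM, which overlapped (0.35, adjusted p = 0.452). CD11b high cells had 2059, 2466, 5286 and 3532 CPM and were called (1.01 ± 0.29, adjusted p = 0.0128), with one library inside the control range. Between the CD11b high and low knockout cells Ctsb was not called (0.67, adjusted p = 0.300). The 3 strata by facility and sex showed no overlap. Facility 1 females had 4060 and 5069 against 1734 and 1842 CPM (1.35, adjusted p = 5.64e-05). Facility 2 females had 6466 and 6367 against 1857, 1913 and 1983 CPM (1.74, adjusted p = 2.79e-07). Males had 3425 and 3221 against 1727 and 1642 CPM (0.98, adjusted p = 0.00200). With CD11c-Cre it was 2197, 2564, 2226 and 2673 against 1144, 1314 and 1102 CPM (1.02 ± 0.12, adjusted p = 8.35e-05), and in Lip CD11b low cells 1633, 1419, 1447 and 1539 against 986, 999 and 821 CPM (0.69, adjusted p = 1.16e-07).

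Ctss, an endopeptidase that stays active at neutral pH and trims the invariant chain of MHC class II in antigen-presenting cells, was called higher in each contrast of Lip cells with their controls. Lip controls had 2780, 3129 and 2845 CPM. Lip CD11b low cells had 10661, 8080, 9554 and 11353 CPM and CD11b high cells 9762, 9218, 8902 and 9853 CPM, far above every control. The rises were 1.76 ± 0.10 (adjusted p = 2.92e-19) and 1.69 ± 0.10 (adjusted p = 3.83e-19). The Lip set that accompanied ATAC-seq had 16503, 10945, 25126 and 17329 against 3964, 5497, 6960 and 4350 CPM (1.75 ± 0.29, adjusted p = 0.000813). In the germline knockout Ctss was not called in the first set: +/+ cells had 7835, 6426, 4416 and 4581 CPM, CD11b low cells 5513, 3429, 6166 and 7753 (-0.02, adjusted p = 0.972) and CD11b high cells 5224, 8062, 18959 and 9557 CPM (0.85, adjusted p = 0.0684). It was called higher in facility 1 females (12530 and 17306 against 6851 and 6760 CPM, 1.13, adjusted p = 0.00161). Ctss was also called higher in facility 2 females (1.00, adjusted p = 0.000681) and the knockout set that accompanied ATAC-seq (1.24, adjusted p = 0.000556). The CD11c-Cre contrast had such a call too (0.67, adjusted p = 0.00329). Males (0.51, adjusted p = 0.188) and the LyzM Cre contrast (0.48, adjusted p = 0.626) had none.

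The difference between Lip and knockout was tested for CD11b low cells as a difference of differences, each line against its own controls. Of the 10 members, Ctss passed (1.79 ± 0.40, adjusted p = 0.00734), where 4.00% of 9501 genes passed. Ctsd followed with 0.74 ± 0.23 (adjusted p = 0.0661) and was called by DESeq2 (adjusted p = 0.0167). The lines were compared across separate sets of libraries and backgrounds, so line and set cannot be told apart in this difference. Summed alveolar macrophage markers fell in Lip cells too, from 27155 to 29408 CPM in controls to 12569 to 16876 in CD11b low and 4813 to 6601 in CD11b high cells. Monocyte-derived markers were 948 to 1138, 926 to 1184 and 1724 to 2564 CPM in the same order. The part of these marker levels in the Ctss and Ctsd differences was not tested.

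Ctsl, an endopeptidase with broad specificity that also processes other lysosomal proteases, was not called in the first set: +/+ cells had 291, 382, 401 and 314 CPM, CD11b low cells 399, 210, 305 and 628 and CD11b high cells 248, 430, 802 and 739 CPM. It rose in facility 1 females (632 and 904 against 319 and 296 CPM; 1.32, adjusted p = 0.000865), in facility 2 females (746 and 1216 against 397, 335 and 299 CPM; 1.52, adjusted p = 2.65e-05) and with CD11c-Cre (711, 894, 671 and 528 against 370, 323 and 339 CPM; 1.03 ± 0.16, adjusted p = 0.000728). In males it was 491 and 404 against 214 and 245 CPM (0.96, adjusted p = 0.0168), a call lost without either +/+ library or without -/- replicate 1. Lip CD11b low cells had 478, 430, 515 and 441 and CD11b high cells 352, 349, 364 and 347 CPM, against 271, 282 and 267 in controls. Both rose (0.77 and 0.37), and the high cells were lower than the low cells by log2 0.40 (adjusted p = 0.000943), with no overlap among the 3 groups.

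**Figure D4:**
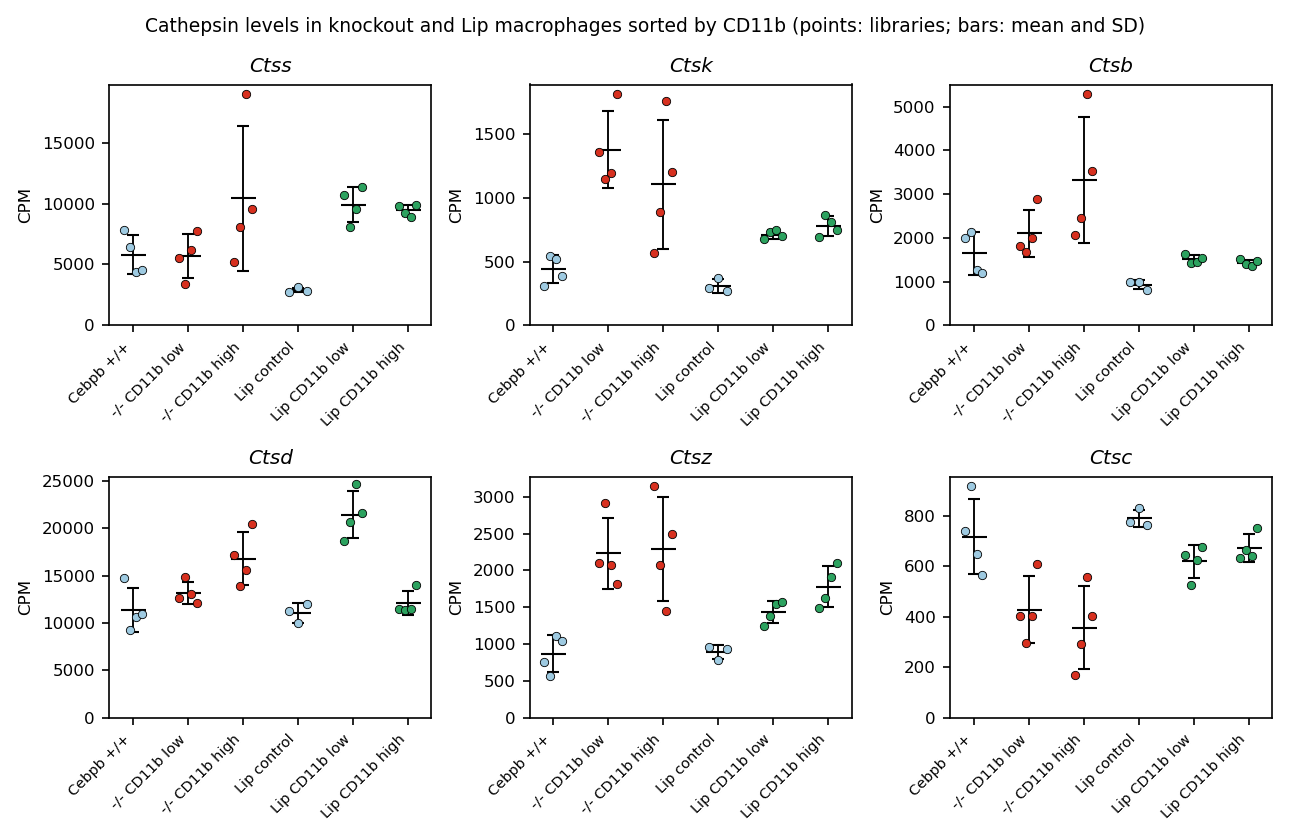
Levels in CPM (y axis, from 0) of members in Cebpb +/+ and -/- and in Lip control and Lip/Lip macrophages sorted by CD11b; points are libraries, bars the mean and SD. Ctsk is above its controls in both lines, and Ctss is 8080 to 11353 CPM in Lip cells of either class against 2780 to 3129 in Lip controls.

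Of the exopeptidases, Ctsc was the one with calls in the lower direction only over the 17 contrasts. Cathepsin C removes dipeptides and activates the serine proteases of granules. Adult +/+ cells had 739, 919, 650 and 567 CPM and CD11b high knockout cells 171, 294, 559 and 402 CPM, below every control although the nearest libraries were close (-1.01 ± 0.30, adjusted p = 0.0163). The call was lost without +/+ replicate 2 or CD11b high replicate 2. CD11b low cells had 404, 295, 405 and 611 CPM, overlapping the controls (-0.74, adjusted p = 0.0997). In facility 2 females it fell from 1426, 1239 and 1090 to 770 and 872 CPM (-0.61, adjusted p = 0.00763), and in Lip CD11b low cells from 778, 830 and 764 to 645, 528, 628 and 678 CPM (-0.35, adjusted p = 0.00547). In the set that accompanied ATAC-seq the fall of 0.52 (log2; adjusted p = 0.0439) was lost without any 1 of 5 of the 6 libraries, all but -/- replicate 3. Facility 1 females (873 and 781 against 794 and 766 CPM) and the CD11c-Cre contrast (1214, 1158, 1199 and 816 against 1162, 1030 and 1209 CPM) had overlapping groups and no call.

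Ctsz, cathepsin X, a carboxypeptidase that removes single residues, was higher in 8 contrasts. Adult +/+ cells had 759, 567, 1106 and 1043 CPM, CD11b low knockout cells 2108, 2923, 2074 and 1821 and CD11b high cells 3144, 2074, 1455 and 2493 CPM. All knockout libraries lay above all controls (1.36 ± 0.26, adjusted p = 0.000904, and 1.40 ± 0.26, adjusted p = 0.000389). Lip CD11b low cells had 1247, 1377, 1547 and 1566 and CD11b high cells 1484, 1621, 1912 and 2096 against 962, 779 and 937 CPM (0.69 and 1.00). LyzM Cre knockout libraries held 3590 and 1670 CPM against 1025 and 1223 CPM, without overlap and with the edgeR adjusted p at 0.152 for a difference of 1.22. DESeq2 gave 0.0340 for the same contrast. With CD11c-Cre the rise of 0.77 (932, 1457, 1209 and 2015 against 790, 912 and 772 CPM; adjusted p = 0.0248) was lost without any 1 control or without knockout replicate 2. Ctsz lies 6.74 Mb from Cebpb on chromosome 2, so outside the LyzM Cre contrast linked DNA and mutation cannot be told apart here either. Both LyzM Cre groups carried the floxed allele, and there the Cre insertion and the deletion cannot be told apart.

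Ctsh, an aminopeptidase known in the lung for processing surfactant protein B, split by set. In facility 1 females it was 796 and 437 in -/- and 344 and 378 CPM in +/+ cells (0.77, adjusted p = 0.0318), a call lost without either +/+ library or -/- replicate 1. In facility 2 females it fell from 593, 641 and 612 to 288 and 356 CPM (-0.93 ± 0.23, adjusted p = 0.00316). The knockout effect differed between the facilities by log2 -1.71 ± 0.34 (facility 2 minus facility 1, adjusted p = 0.00722). Of the 10 members Ctsz was the other called in that test (0.96 ± 0.28, adjusted p = 0.0447; lost without any 1 of 6 of 9 libraries), where 7.61% of genes were. Between males and the females no member's knockout effect was called, against 10.6% of genes. In that test 3 members had an unadjusted p under 0.05, and DESeq2 called 2, Ctsb and Ctsc. The mitochondrial share of counts in these 2 strata was 0.039% to 0.058% in +/+ and 0.886% to 1.22% in -/- libraries of facility 2, and 0.0634% to 0.144% and 0.224% to 0.484% in facility 1. Ctsh was also called higher in the knockout set that accompanied ATAC-seq (0.58, adjusted p = 0.0496). It was not called in CD11b low (0.16), CD11b high (0.22), male (0.31), LyzM Cre (0.21) or CD11c-Cre (0.09) knockout cells. Lip cells had more Ctsh in both classes: 787, 646, 692 and 715 CPM in CD11b low and 732, 782, 733 and 861 CPM in CD11b high cells against 494, 517 and 496 CPM (0.50 and 0.63, adjusted p = 8.39e-05 and 8.08e-07). The Lip libraries that accompanied ATAC-seq had such a call too (0.88, adjusted p = 0.0311).

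In the chimeras, wild-type and mutant cells shared the host, and the cathepsins changed over time. Ctsc was lower in mutant cells at both times: 408, 445, 435 and 401 against 873, 1160 and 1434 CPM at 5 weeks (-1.45 ± 0.18, adjusted p = 5.58e-05) and 472, 636 and 527 against 869, 1242, 1446 and 1141 CPM at 10 weeks (-1.11 ± 0.18, adjusted p = 0.000143). Ctsl went from lower at 5 weeks (327, 340, 296 and 243 against 569, 586 and 524 CPM; -0.89 ± 0.15, adjusted p = 0.000449) to no call at 10 weeks (612, 580 and 530 against 462, 532, 481 and 354 CPM; 0.33, adjusted p = 0.0773). Ctsb overlapped at 5 weeks (3261, 3089, 2708 and 2905 against 2514, 2795 and 2514 CPM) and was higher at 10 weeks (3314, 3228 and 3302 against 1646, 1512, 1414 and 1153 CPM; 1.20 ± 0.13, adjusted p = 2.79e-06). Mutant Ctsb levels spanned 2708 to 3261 and 3228 to 3314 CPM at the 2 times, and wild-type levels 2514 to 2795 and 1153 to 1646 CPM.

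Ctsk had 359, 228, 226 and 86.9 CPM in mutant and 670, 625 and 401 CPM in wild-type cells at 5 weeks (-1.33 ± 0.35, adjusted p = 0.0163, lost without wild-type replicate 1 or 2). At 10 weeks mutant cells had 952, 611 and 1131 and wild-type cells 577, 421, 600 and 443 CPM, without overlap (0.81, adjusted p = 0.0748, and 0.0149 with the replicate number as a block). Ctsd fell at 5 weeks (7796, 6121, 3789 and 4126 against 9367, 9703 and 8393 CPM; -0.75, adjusted p = 0.0275, lost without any 1 of 5 of the 7 libraries) and was not called at 10 weeks (15833, 10511 and 8512 against 8880, 7545, 7600 and 8001 CPM). Ctsz was not called at 5 weeks and rose at 10 weeks (1815, 1817 and 1968 against 935, 996, 987 and 1001 CPM; 0.93 ± 0.14, adjusted p = 6.12e-05). At 10 weeks the calls for Ctss (0.50, adjusted p = 0.0407) and Ctsh (-0.46, adjusted p = 0.0311) were lost with the replicate number as a block (adjusted p = 0.174 and 0.0766). They were also lost without any 1 of 5 libraries for Ctss and any 1 of 4 for Ctsh. With the block, 5 members were called in place of 6.

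**Figure D5:**
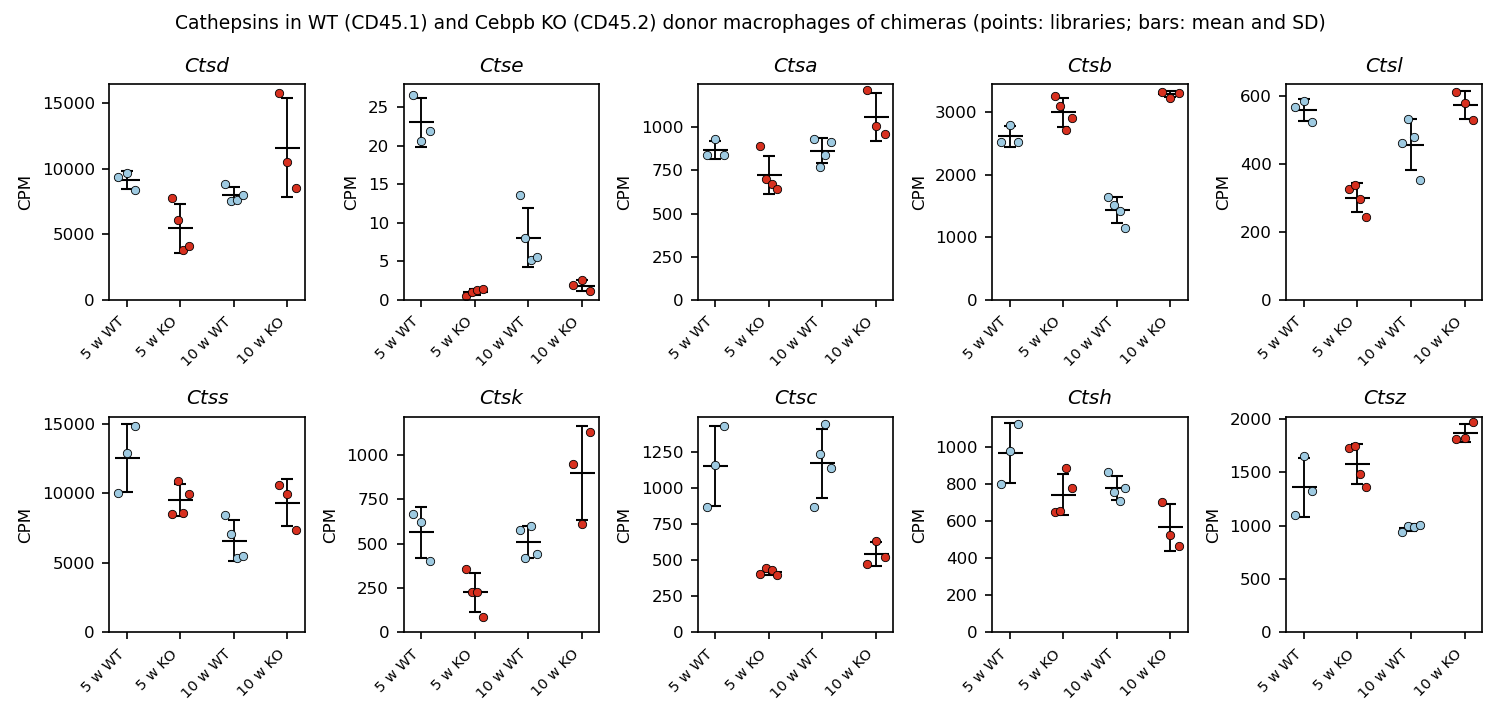
Levels in CPM (y axis, from 0) of members in wild-type CD45.1 and Cebpb mutant CD45.2 donor macrophages at 5 and 10 weeks; points are libraries, bars the mean and SD. Ctsc is lower in mutant cells at both times, and Ctsb is higher in mutant cells at 10 weeks.

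The mutant-to-wild-type difference itself differed between the times for 7 of 10 members, all toward higher values at 10 weeks, where 13.5% of genes passed that test. The changes were 2.32 ± 0.53 for Ctse, 2.14 ± 0.50 for Ctsk, 1.28 ± 0.33 for Ctsd, 1.22 ± 0.21 for Ctsl, 1.00 ± 0.19 for Ctsb, 0.90 ± 0.27 for Ctss and 0.71 ± 0.20 for Ctsz. The Ctss call was lost without any 1 of 8 of the 14 libraries. Ctse lost it without 10-week mutant replicate 2, and Ctsz without 5-week mutant replicate 3 or 4 or 5-week wild-type replicate 2. The markers moved over the same interval. Summed monocyte-derived markers were 4661 to 5811 (wild-type) and 4797 to 8210 CPM (mutant) at 5 weeks, and 850 to 3235 and 11990 to 17678 CPM at 10 weeks. Dendritic cell markers were 498 to 650 and 2162 to 3871 CPM at 5 weeks, and 36.3 to 124 and 317 to 1397 CPM at 10 weeks. Alveolar macrophage markers were 6124 to 10962 and 2498 to 2912 CPM at 5 weeks, and 18774 to 30344 and 3447 to 4573 CPM at 10 weeks. The part of these shifts in the cathepsin differences was not tested.

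Ctse ran the other way in the chimeras. Mutant cells had 0.571, 1.00, 1.33 and 1.43 CPM at 5 weeks against 26.6, 20.6 and 21.9 CPM in wild-type cells (-4.43 ± 0.36, adjusted p = 1.23e-06). At 10 weeks they had 1.93, 2.55 and 1.16 against 13.6, 8.07, 5.21 and 5.54 CPM (-2.11 ± 0.38, adjusted p = 0.000273). No library overlapped. Ctse lies 6.39 Mb from Ptprc on chromosome 1, the gene of the CD45 allele by which the donors differ. Donor strain (wild-type donors were B6.SJL-Ptprca-Pepcb/BoyJ), the Cre transgene and Cebpb differ together between these groups and cannot be told apart.

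In day 18 premature macrophages Ctsd was lower in Cebpb -/- cells, at 1391, 860, 1247 and 506 against 3140, 3089 and 2814 CPM (-1.59 ± 0.31, adjusted p = 0.00195). It was lower in Csf2rb -/- cells too, at 1044, 1221 and 826 against 2251, 3614, 2471 and 2880 CPM (-1.44 ± 0.22, adjusted p = 0.00151). Ctse was higher in both, at 39.3, 55.7, 40.8 and 54.3 against 27.8, 14.6 and 20.5 CPM (1.17 ± 0.27, adjusted p = 0.00649) and at 63.2, 179 and 204 against 17.9, 13.4, 16.0 and 21.2 CPM (3.12 ± 0.41, adjusted p = 0.000681). Ctsh rose in Cebpb -/- cells alone of these contrasts, at 524, 702, 450 and 521 against 256, 241 and 237 CPM (1.17 ± 0.22, adjusted p = 0.00143), and was not called in Csf2rb -/- cells (0.24, adjusted p = 0.504); the difference between those effects was not tested. None of the Ctsd and Ctse groups overlapped.

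The day 18 cells also differed in markers. Alveolar macrophage markers summed to 2886 to 3115 CPM in +/+ and 310 to 550 in Cebpb -/- cells, and dendritic cell markers to 14.9 to 20.0 and 354 to 784 CPM. In the Csf2rb line alveolar macrophage markers were 2330 to 4043 against 149 to 382 CPM, and monocyte-derived markers 302 to 621 against 7067 to 10587 CPM. The 3 Csf2rb -/- libraries held 9387 to 9418 detected genes and the +/+ libraries 11639 to 12557, at overlapping depths (1642946 to 2907179 and 2549216 to 7949564 counts). The part of these differences in the Ctsd, Ctse and Ctsh results was not tested. In Ly6Chi fetal monocytes Ctse was 129, 122 and 86.5 in +/+ and 99.2, 113, 153 and 132 CPM in -/- cells, and Ctsd 1413, 1441 and 1254 and 736, 1236, 804 and 867 CPM. The Ctsd libraries did not overlap, but the difference of -0.59 had an adjusted p of 0.141. Ctsk was near its floor in these monocytes, with 0.678 to 3.33 CPM in all 7 libraries.

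Adult +/+ macrophages were set against day 18 +/+ premature macrophages of the same line. Ctsk was 309 to 548 CPM in adult and 9.70 to 26.6 CPM in day 18 cells (4.57 ± 0.35, adjusted p = 1.23e-07). Ctsd (1.84), Ctss (1.52), Ctsz (1.28), Ctsa (0.89) and Ctsl (0.71) were higher in the adult, and Ctse (-3.41 ± 0.50) and Ctsc (-0.93) lower. In all 8 of 10 members were called, where 42.1% of genes were. The 8 include Ctse, which no adult library carried over the low-count filter's minimum. It entered that test through the day 18 libraries, where it is high, and had to differ. Ctsl lost its call without any 1 of 4 libraries (adult replicate 2 or 3, day 18 replicate 2 or 3). Age, preparation (lavage or whole lung) and library set cannot be told apart here.

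Genes that work with cathepsins were counted from fixed lists, which were chosen with earlier results of these data known. Of all tested genes 8.29% were called higher and 6.83% lower in CD11b low Cebpb -/- cells, and 10.3% and 6.48% with CD11c-Cre. In Lip CD11b low cells 1251 of 8918 genes were called higher and 1054 lower. In the chimeras 12.1% of genes were higher and 10.5% lower at 5 weeks, and 24.5% and 21.1% at 10 weeks. Of 17 inhibitors, activators and partners 9 could be tested in CD11b low Cebpb -/- cells, and 5 rose and 1 fell. Cst3, the secreted inhibitor cystatin C, rose by 1.76 ± 0.23 (adjusted p = 2.05e-05), and Lgmn, the asparaginyl endopeptidase that processes cathepsin precursors, by 1.16 ± 0.35 (adjusted p = 0.0284). With CD11c-Cre 5 of 9 rose and 0 fell, Lgmn by 1.61. In Lip CD11b low cells 7 of 9 rose and 0 fell, Cst3 by 1.52. In the chimeras 1 of 10 rose and 2 fell at 5 weeks, and 6 rose and 1 fell at 10 weeks, with Cst3 higher at both times (1.56 and 2.04).

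Of 15 genes for sorting to the lysosome and for its membrane, all tested in CD11b low Cebpb -/- cells, 2 rose and 2 fell. The fallen genes were the sorting receptors Sort1, sortilin (-1.68 ± 0.26, adjusted p = 0.000133), and M6pr, the cation-dependent mannose 6-phosphate receptor (-0.92 ± 0.24, adjusted p = 0.0112). The risen genes were the lysosomal membrane proteins Cd63 (1.98) and Cd68 (0.70). Sort1 was lower in the other contrasts looked at here as well: facility 2 females (-3.77), CD11c-Cre (-0.45), Lip CD11b low (-0.62), both chimera times (-3.06 and -3.37) and day 18 Cebpb -/- cells (-4.36), each with an adjusted p under 0.05. In those day 18 cells 1 of 15 rose and 7 fell, where 12.0% of all tested genes were higher and 9.55% lower. Of 8 other lysosomal proteases tested in CD11b low cells 1 rose, the peptidase Cpq (2.88), and 0 fell.

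MHC class II loading genes, which use cathepsins S and L, were called higher for 7 of 8 in CD11b low Cebpb -/-, CD11c-Cre and Lip CD11b low cells, with none lower. Cd74, the invariant chain that Ctss trims, rose by 4.33 ± 0.39 in CD11b low Cebpb -/- cells, where Ctss itself was not called, and by 5.94 ± 0.25 in Lip CD11b low cells, where Ctss rose by 1.76. Of 5 tested extracellular proteases and genes of Ctsk-rich cells, 3 rose in CD11b low knockout cells, Mmp12 (4.24), Mmp14 (2.88) and Dcstamp (4.66), beside Ctsk.

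Across 50 adult lavage libraries of the largest table, each centred on its own controls, the levels of some members ran together. Pearson's r, given as a description over libraries that share controls and sets, was 0.849 for Ctsb and Ctsl, 0.843 for Ctsa and Ctsz, and 0.789 for Ctsb and Ctsk. It was -0.804 for Ctsc and Ctsz and -0.796 for Ctsc and Ctsa. Among 6268 expressed genes the closest to Ctse were Apobec1 (0.900), Fcgr2b (0.894) and Mndal (0.885). Those closest to Ctsk were Cd63 (0.919), Slc6a8 (0.901) and Syngr1 (0.880), and those closest to Ctsb were P2rx4 (0.919), Lgmn (0.918) and H2-M3 (0.874).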

How the data were processed

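Gene counts were deposited by the authors as 3 tables of whole-number counts, made with STAR 2.6.1a and featureCounts 1.6.3 on GRCm38 per the submitters' processing notes. The sources used here do not state if unique molecules or strand entered the counting. The peak lists hold the authors' fold enrichment (a ratio), −log10 p and q and a score per peak, called per library with MACS2 2.2.7.1 after BWA 0.7.17, per the submitters' processing notes.

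Each set of libraries was fitted separately with edgeR 4.0.16 (R 4.3.3, limma 3.58.1): TMM scaling, filterByExpr with a minimum count of 10, quasi-likelihood test, Benjamini-Hochberg adjustment over all genes tested, called at an adjusted p under 0.05. CPM are counts scaled to 1000000 of the TMM-adjusted library total. Sets were scaled apart, so tests stay within a set. The pipeline was checked on simulated counts. At 642269 to 17834909 counts, 3 counts, the limit that a count of 0 allows, stand for 0.163 to 5.20 CPM, for counting error only. ChIP regions are overlaps of peaks from both libraries within 10 kb of a gene.

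Among contrasts with at least 3 pairs of same-numbered libraries, these deviated together (every r over 0.1) only for Lip CD11b high against low and the 10-week chimeras. There r was 0.104 to 0.274 over 4 pairs and 0.156 to 0.211 over 3 pairs, respectively. All 10 members are reported, and from fixed companion lists those genes that were called. Nearest genes by Pearson's r are named for the members called most often. The members and lists were chosen with earlier results of these data known. Alternatives were DESeq2 1.42.0, its size factors in edgeR, no low-count filter, a replicate block, each library left out, and other distances and q limits for peaks.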

Additional observations from a re-analysis of the deposited data

Results flagged for a closer look

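In the groups of 4 libraries, 10 of 127 tests over members and groups found 1 library far from the others relative to the group's range. Chance alone flags about 1 group in 20. Ctsa was highest in day 18 Csf2rb +/+ replicate 2 (774.8 CPM, the next library 490.3) and in replicate 3 of the Lip controls that accompanied ATAC-seq (797.4, next 726.9). In the same control library Ctsb was 1902 CPM (next 1340). In the CD11c-Cre knockout, replicate 1 was low for Ctsa (1167, next 1312) and replicate 4 low for Ctsc (816.1, next 1158). Lip CD11b high replicate 4 was high for Ctsd (14013, next 11505) and for Ctse (4.825, next 0.9611), and Lip CD11b low replicate 4 was the library with Ctse counts (0.8468, the others 0). Ctsk was 3.327 CPM in Ly6Chi Cebpb -/- replicate 1 (next 1.055), and Ctsz 264 CPM in day 18 Cebpb -/- replicate 4 (next 336.1).

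Between groups, 10 effects differed by the test of the difference itself (edgeR quasi-likelihood test, Benjamini-Hochberg). The knockout effect in facility 2 minus that in facility 1 was -1.71 (log2) for Ctsh (adjusted p = 0.00722) and 0.96 for Ctsz (adjusted p = 0.0447). The mutant effect at 10 weeks minus that at 5 weeks was 1.00 for Ctsb (adjusted p = 0.00260), 1.28 for Ctsd (0.0158), 2.32 for Ctse (0.00868), 2.14 for Ctsk (0.0132), 1.22 for Ctsl (0.00142), 0.90 for Ctss (0.0347) and 0.71 for Ctsz (0.0265). The Lip effect minus the knockout effect in CD11b low cells was 1.79 for Ctss (adjusted p = 0.00734).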

How the results depend on the processing

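No member changed sign in a called contrast under any alternative that was run. DESeq2 size factors in edgeR left every count of called members within 1.5 times. DESeq2 called 1 member for LyzM Cre (0 by edgeR), 4 for the facility difference (2), 2 for the male-female difference (0) and 2 for Lip against knockout (1). Without the low-count filter 1 was called for LyzM Cre. Leaving out 1 library gave 0 to 6 called members for LyzM Cre, 2 to 4 for day 18 Csf2rb, 3 to 5 for the 5-week chimera, 4 to 7 for the knockout libraries with ATAC-seq, 2 to 5 for the Lip libraries with ATAC-seq, 1 to 3 for the facility difference, 0 to 1 for the male-female difference and 1 to 2 for Lip against knockout. Among single members 106 of 1902 such fits lost a call and 38 gained one. Where leaving out a library leaves a group with 1, that library is assumed to vary like the others. The cause of these changes was not tested. Shared ChIP regions lay near 8 members within 5 kb (52.5% of genes), 10 within 50 kb (80.3%), 7 at −log10 q of at least 10 (43.2%), and 9 when 1 ChIP library sufficed (74.2%).

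With the replicate number as a block, 3 members were called in CD11b high knockout cells in place of 7 (over all genes 1301 of 8164 in place of 2044 of 8502), and 5 in the knockout libraries with ATAC-seq in place of 8 (2675 in place of 2795 of 10262). Elsewhere the block kept the count within 1.5 times. The numbers pair the libraries for Lip CD11b high against low, where the block added Ctsa (adjusted p = 0.0139; 4 called in place of 3), and for the 10-week chimeras, where it called 5. For the other contrasts the labels do not say if same-numbered libraries were paired, and pairing was not shown. Low Ctse counts in controls and groups of 2 libraries limit the precision.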
